A study of Mus musculus with 24 samples.

Results

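Lysosomal glycosidases are the enzymes that remove sugars from glycolipids, glycogen, glycosaminoglycans and the glycans of glycoproteins inside lysosomes. The mRNA of 9 such genes, *Hexa*, *Gla*, *Glb1*, *Neu1*, *Gaa*, *Naglu*, *Gusb*, *Man2b1* and *Manba*, was followed here among the 55487 genes of the deposited table. The members were taken by gene name from a list, which was chosen with earlier results of these data known. All 9 were detected and passed the filter on low counts. The libraries came from MEFs (mouse embryonic fibroblasts) that were wild type (WT) or *tfeb tfe3* double knockout (DKO), and cells of both genotypes received the vehicle DMSO, torin1, a catalytic inhibitor of MTOR, or MK-8722, an activator of AMPK. Each of the 6 groups held 4 libraries, 24 in all, and within a genotype each treatment had 1 library at each of 4 passages, which were 7, 8, 9 and 11 for WT and 8, 9, 10 and 11 for DKO. WT and *tfeb tfe3* DKO MEFs are separate lines, so a difference between genotypes and a difference between lines cannot be told apart. The labels state neither a dose nor a duration, while the paper gives the doses of both drugs in a figure legend.

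Each of these enzymes acts at an acidic pH on the end of a sugar chain, so that most glycans are taken apart in steps, and the loss of 1 enzyme in a person leaves its substrate in the lysosome as a storage disease. TFEB and TFE3 are transcription factors that bind E-box sequences near the start of many lysosomal genes, the CLEAR network. MTORC1 phosphorylates them and keeps them in the cytosol, and inhibition of MTOR or activation of AMPK is known to release them to the nucleus. The comparisons below ask how far the mRNA of the glycosidases followed each drug and how far it did so in cells described as without both factors.

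Total counts per library ranged from 24668921 to 33332562. *Tfeb* was counted at 14 to 25.0 CPM (the count relative to the size of its library, scaled by TMM) in WT and at 1.34 to 2.65 CPM in DKO, whereas *Tfe3* mRNA was counted at 77.5 to 121.8 CPM in WT and 89.5 to 126.4 CPM in DKO, so these counts do not check the loss of TFE3. The fibroblast genes *Col1a1*, *Fn1* and *Vim* were at 754 CPM or more in every library, while *Lum* was at 0 in 18 libraries. *Dcn* stayed at 1.14 CPM or less and was called higher with torin1 in WT (log2 2.15). With torin1 *Col1a1* (log2 -1.12 in WT and -1.10 in DKO) and *Col1a2* (-1.01 and -1.16) were called lower in both lines. *Pdgfra* (2.06 and 2.30), *Fn1* (0.61 and 1.16) and *Vim* (0.46 and 0.50) were called higher with torin1 in both. *Thy1*, another fibroblast marker, separated the 2 lines, at 2.22 to 4.51 CPM in the WT libraries and at 0 in 11 of the 12 DKO libraries. Of 8 macrophage markers, *Adgre1* and *Tyrobp* were at 0 in all 24 libraries and *Cd14*, at 5.76 to 10.7 CPM, was the only one with a mean above 1 CPM in any group, and the summed macrophage markers came to between 6.19 and 11.6 CPM. The 4 epithelial markers summed to 2.77 to 4.58 CPM in WT and 2.99 to 4.87 in DKO under DMSO, 5.55 to 7.45 and 9.88 to 14.5 under torin1, and 3.81 to 5.16 and 5.97 to 11.2 under MK-8722. *Krt8*, a keratin, was called higher with torin1 in DKO (log2 1.51, SE 0.19, adjusted p = 4.61e-07) and in WT (log2 0.93, SE 0.21, adjusted p = 0.0005). With torin1 *Cdh1* (log2 0.93) and *Epcam* (1.06) were called higher in WT and *Krt18* (1.51) in DKO, all at 1.86 CPM or less in every library. The endothelial marker *Kdr*, at 0.0602 to 1.15 CPM in WT, was called higher there with torin1 (log2 2.20) and with MK-8722 (3.46). The part of these markers in the results was not tested. The 3 WT libraries of passage 11 stood apart, with an SD of the log2 deviations from their group means of 0.330 to 0.364 over all genes tested, against 0.202 to 0.268 in the other WT libraries. The fits of the members were also run without them and without the libraries of DKO passage 8.

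The E-box core CACGTG, the same letters on both strands, was looked for in the 250 bases before the RefSeq start of each gene (GRCm38.p6). It was found in 4 of the 9 members, *Gla*, *Glb1*, *Gaa* and *Naglu*, and in 6.021% of 32851 promoters of the table. The longer form TCACGTG, on either strand and always overlapping a CACGTG, was found in the same 4 members and in 3.129% of all promoters. The related M-box core CATGTG, on either strand, was found in *Gla* and in 12.25% of all promoters. The stretches that hold these letters are printed 5′ to 3′ on the strand of the gene, from RefSeq and with CACGTG and CATGTG in capitals, because TFEB and TFE3 are known to bind such letters.
*Gla*, chrX:134601164-134601255, minus strand: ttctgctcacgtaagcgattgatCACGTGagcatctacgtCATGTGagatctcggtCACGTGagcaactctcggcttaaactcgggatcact
*Glb1*, chr9:114401000-114401065, plus strand: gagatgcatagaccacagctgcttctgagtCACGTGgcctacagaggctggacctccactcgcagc
*Gaa*, chr11:119267793-119267858, plus strand: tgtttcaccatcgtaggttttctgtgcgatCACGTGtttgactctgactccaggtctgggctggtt
*Naglu*, chr11:101070015-101070038, plus strand: tcaggtCACGTGgcccgaggtcgg

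*Gla* held the CACGTG letters at 2 places, from bases -227 and -194 relative to the start, with a CATGTG between them. The letters began at base -140 in *Gaa*, -73 in *Naglu* and -48 in *Glb1*. The stretch of *Naglu* lies upstream of the RefSeq start but inside the gene as GENCODE annotates it. In *Hexa*, *Neu1*, *Gusb*, *Man2b1* and *Manba* none of these letters occurred in this window, which says nothing of sites elsewhere.

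Per length of transcript, in TPM, the members of vehicle-treated WT cells spanned from *Gaa* at 74.4 ± 2.23 (SD, n = 4) to *Manba* at 1.51 ± 0.403. *Gusb* followed *Gaa* with a TPM of 47.8 ± 1.48. *Man2b1* at 38.0 ± 1.1 and *Hexa* at 37.9 ± 2.48 overlapped, and so did *Glb1* at 16.4 ± 1.2 and *Neu1* at 15.5 ± 1.34. Below them came *Naglu* at 9.73 ± 0.768 and *Gla* at 6.88 ± 0.881, with no overlap between neighbours. The order moved with treatment and genotype. *Hexa* and *Neu1* stood at ranks 2 and 3 in WT cells under MK-8722, where *Neu1* overlapped with *Gusb*, and *Gusb*, at 74.7 ± 3.22 TPM, was the highest of the members in DKO cells under DMSO, where *Gaa* had a TPM of 46.6 ± 1.93.

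**Figure D1:**
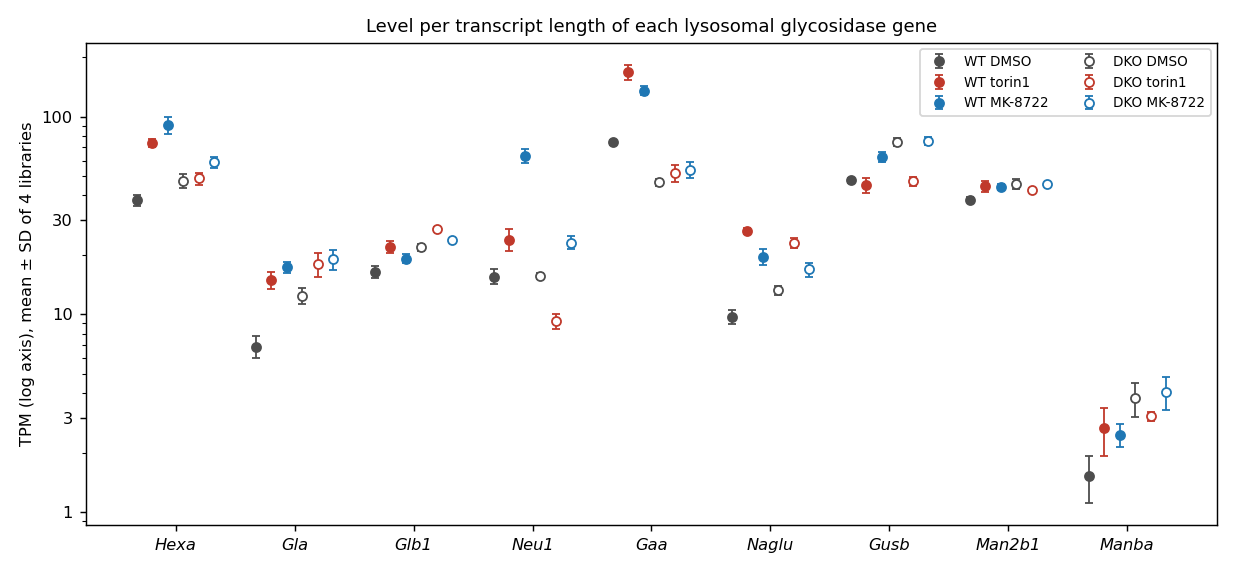
Mean TPM on a log axis with the SD of 4 libraries for each of the 9 genes, by group (filled, WT; open, DKO). *Gaa* was the highest in the 3 WT groups and *Manba* the lowest in every group.

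In WT cells torin1 raised 7 of the 9 members and MK-8722 raised 7. A gene was called higher or lower where edgeR's quasi-likelihood F test gave a Benjamini-Hochberg adjusted p under 0.05 over the 15401 genes tested and a fold change of at least 1.2, and by that rule 26.6% of all genes tested were called higher with torin1 and 10.3% with MK-8722. The median log2 fold change of the members was 0.55 with torin1 and 0.85 with MK-8722, beside 0.05 and -0.01 over all genes tested. Both comparisons use the same 4 WT DMSO libraries, so the 2 sets of values are not independent. *Glb1* was called with torin1 and not with MK-8722, *Gusb* with MK-8722 and not with torin1, and *Man2b1* with neither drug.

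In DKO cells 2 members were called higher with torin1 (23% of all genes tested), *Naglu* and *Gla*, and 2 lower (20.2%), *Neu1* and *Gusb*, both near the shares of all genes. With MK-8722 4 members were called higher, *Neu1*, *Gla*, *Naglu* and *Hexa*, where 5.47% of all genes tested were. The drugs were not compared directly in DKO cells. The response, meaning the log2 fold change of a drug in DKO minus that in WT, had a value below 0 for all 9 members and both drugs. It was called lower for 6 members with torin1 (6.33% of all genes tested) and for 6 with MK-8722 (4.08%), and these were the same 6 genes, *Neu1*, *Hexa*, *Gaa*, *Gla*, *Naglu* and *Gusb*. The responses to the 2 drugs share the 8 DMSO libraries, so they are not independent. With the fold change of 1.2 in the test itself (glmTreat), *Gla* was no longer called for torin1 (adjusted p = 0.26) nor *Gusb* for MK-8722 (adjusted p = 0.76). The median response of the members was -0.56 for torin1 and -0.64 for MK-8722, against -0.01 and 0.01 over all genes tested. In bulk RNA, fewer cells that express a gene and less mRNA per cell cannot be told apart. Without the 2 passages named above, the counts of the responses were again 6 and 6. With passage as a block they were 7 and 7, *Manba* being added. The shares of all genes called in these settings are not given here.

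**Figure D2:**
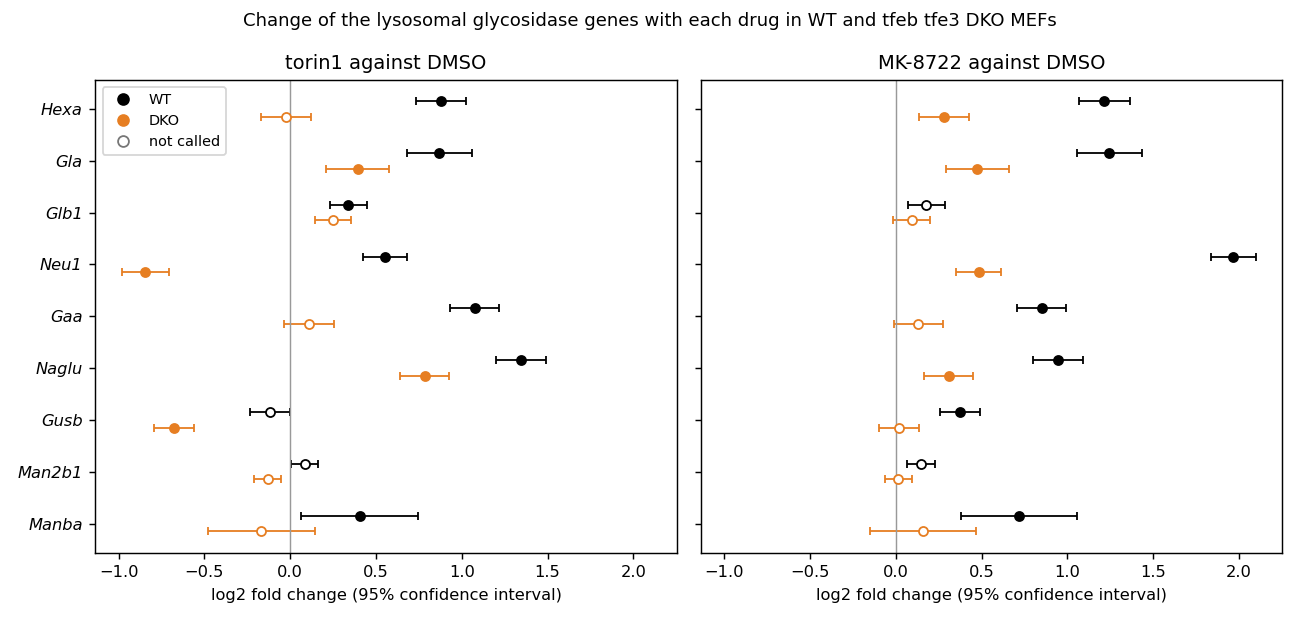
Log2 fold change of each gene with torin1 and with MK-8722 against DMSO, with its 95% confidence interval, in WT (black) and DKO (orange) cells; open symbols were not called. In every row the orange point lies to the left of the black one, and with torin1 *Neu1* and *Gusb* of DKO cells lie below 0.

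Of the enzymes of glycolipids, *Neu1* (ENSMUSG00000007038, chr17:34931253-34935953, plus strand) had the largest difference between genotypes. All positions of genes are those of GENCODE M21 on GRCm38, and all 9 genes are protein-coding. *Neu1* encodes the lysosomal sialidase, which takes sialic acid off glycoproteins and gangliosides and works in a complex with CTSA and GLB1. Its level in the 4 WT libraries under DMSO was 25.4, 22.7, 26.0 and 23.3 CPM, under torin1 31.3, 35.7, 35.8 and 39.9, and under MK-8722 101, 91.6, 99.9 and 88.7. In DKO cells it was 25.4, 24.2, 25.0 and 26.3 CPM under DMSO, 14.5, 14.3, 14.4 and 13 under torin1, and 37.0, 35.1, 36.0 and 33 under MK-8722. The 2 genotypes overlapped under DMSO, and no library of one overlapped the other under either drug. MK-8722 raised *Neu1* 3.91-fold in WT cells (log2 fold change 1.97, SE 0.063, adjusted p = 9.88e-16) and 1.40-fold in DKO cells (0.48, SE 0.063, adjusted p = 1.75e-05). Torin1 moved it in opposite directions, up 1.47-fold in WT (log2 0.55, adjusted p = 8.48e-08) and down in DKO (log2 -0.84, adjusted p = 2.35e-10), and did so at each of the 4 passages of each line. The response in DKO compared to WT was -1.40 (SE 0.091) for torin1 and -1.48 (SE 0.089) for MK-8722, with adjusted p of 4.22e-10 and 1.09e-10.

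*Hexa* (ENSMUSG00000025232, chr9:59539540-59565109, plus strand) encodes the alpha subunit of hexosaminidase A, which breaks down GM2 ganglioside and is lost in Tay-Sachs disease. WT libraries held 44.9, 50.9, 44.3 and 47.9 CPM under DMSO, 80.4, 88.7, 86.5 and 90.2 under torin1, and 108, 117, 117 and 95.1 under MK-8722, with no overlap among the 3 treatments. DKO libraries held 53.9, 63.8, 64.7 and 59.1 CPM under DMSO, 61.7, 54.1, 63.6 and 58.1 under torin1, and 70.1, 68.9, 76.7 and 78.1 under MK-8722. The torin1 and DMSO libraries of DKO overlapped, and those under MK-8722 were all higher. The rise in WT was 1.84-fold with torin1 (log2 0.88, SE 0.071) and 2.32-fold with MK-8722 (log2 1.22, SE 0.071). In DKO the log2 fold change was -0.02 with torin1 (95% confidence interval -0.17 to 0.12, not called) and 0.28 with MK-8722 (SE 0.071, adjusted p = 0.0064). The responses were -0.90 (SE 0.10, adjusted p = 1.09e-06) and -0.93 (SE 0.10, adjusted p = 7.57e-07). The call of *Hexa* with MK-8722 in DKO was lost on the fold change without DKO DMSO replicate 1 (log2 0.23), DKO MK-8722 replicate 3 (0.26) or DKO MK-8722 replicate 4 (0.25).

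*Gla* (ENSMUSG00000031266, chrX:134588149-134601125, minus strand) encodes alpha-galactosidase A, which cleaves globotriaosylceramide and is lost in Fabry disease, and it was among the less abundant members in WT cells. It was counted at 11.2, 14.4, 11.7 and 11.5 CPM in WT under DMSO, 24, 20.5, 22.2 and 22.3 under torin1 and 25.2, 35.4, 27.8 and 27.3 under MK-8722. In DKO it was at 24.8, 21.9, 23.6 and 22.3 CPM under DMSO, 33, 28, 29.9 and 30.8 under torin1 and 31.2, 31.5, 31.2 and 34.8 under MK-8722. Vehicle-treated DKO libraries overlapped torin1-treated WT libraries, and all DKO libraries under either drug lay above both. The fold changes were 1.82 and 2.37 in WT for torin1 and MK-8722, and 1.31 and 1.39 in DKO, all called. The responses were -0.47 (SE 0.13, adjusted p = 0.013) for torin1 and -0.77 (SE 0.13, adjusted p = 0.00026) for MK-8722.

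*Glb1* (ENSMUSG00000045594, chr9:114401076-114474898, plus strand) encodes lysosomal beta-galactosidase, which acts on GM1 ganglioside and keratan sulfate. Its group means ran from 25.6 ± 1.78 CPM (SD, n = 4) in WT under DMSO to 41.7 ± 0.799 in DKO under torin1. With torin1 it rose 1.26-fold in WT (log2 0.34, SE 0.051), and in DKO its log2 fold change of 0.25 (95% confidence interval 0.14 to 0.35, adjusted p = 0.00022) stayed under the fold change required. The responses of -0.09 (-0.24 to 0.06) and -0.09 (-0.24 to 0.07) were not called. In DKO under torin1 the call appeared without DKO DMSO replicate 2 (log2 0.26), without DKO torin1 replicate 1 (0.26), without the 2 passages (0.28) and with library size alone in place of TMM (0.28). The call with torin1 in WT was lost with glmTreat (adjusted p = 0.064). The counts of *Glb1* are uncertain because *Tmppe* lies within it on the same strand and was given 35.5% as many counts. *Tmppe* itself had log2 fold changes of 0.09 and 0.12 with torin1 and MK-8722 in WT, neither called, but was itself called higher in DKO under all 3 treatments, by 0.67 (SE 0.081), 0.60 (SE 0.080) and 0.47 (SE 0.081) under DMSO, torin1 and MK-8722, where *Glb1* had 0.45, 0.36 and 0.37. Adding its counts to those of *Glb1*, a setting chosen after the data were seen, changed none of the calls of *Glb1*.

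**Figure D3:**
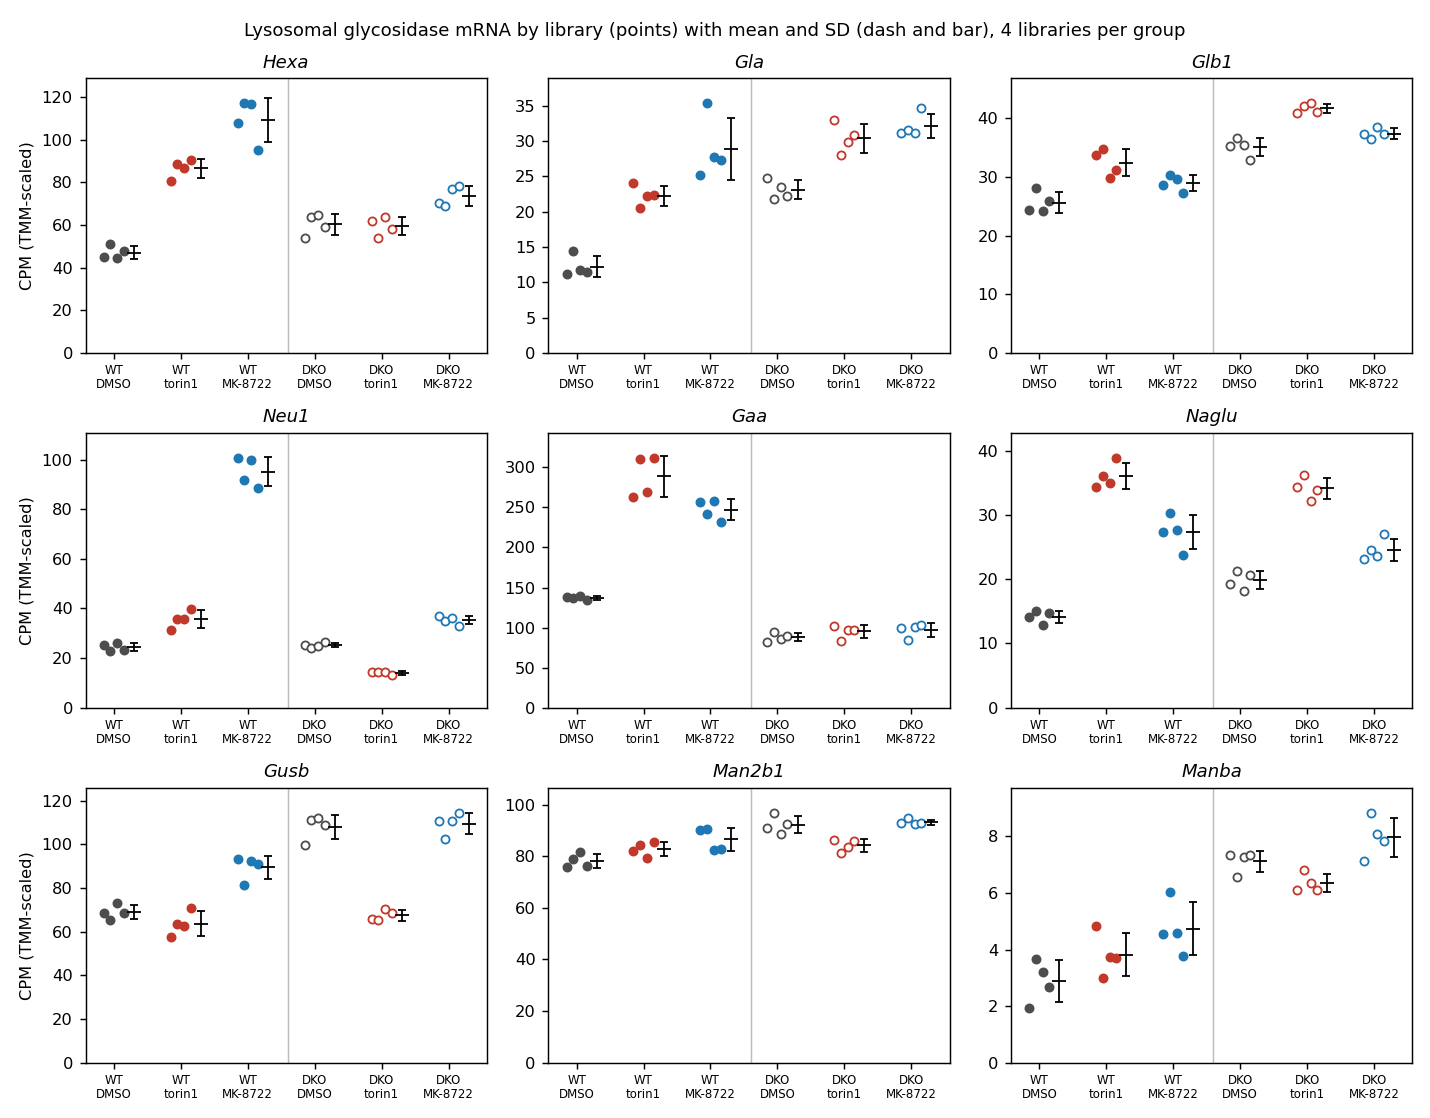
CPM of each gene in each library, on linear axes from 0, with the mean and SD of each group of 4 (filled, WT; open, DKO; grey, DMSO; red, torin1; blue, MK-8722). *Neu1* under MK-8722 in WT, at 88.7 to 101 CPM, stands above every other group, and *Gaa* stays between 82.1 and 103 CPM in all 12 DKO libraries.

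*Gaa* (ENSMUSG00000025579, chr11:119267887-119285454, plus strand), the acid alpha-glucosidase that degrades glycogen in lysosomes and is lost in Pompe disease, rose with both drugs in WT and had overlapping levels under the 3 treatments in DKO. WT libraries had 138, 137, 140 and 134 CPM under DMSO, 263, 311, 270 and 311 under torin1, and 257, 242, 258 and 231 under MK-8722. In DKO libraries the values were 82.1, 94.3, 86.2 and 90.1 CPM, then 102.1, 83.6, 97.5 and 97.5, then 99.1, 83.9, 101 and 103. All 12 DKO libraries lay below all 12 WT libraries. The rise in WT was 2.11-fold with torin1 (log2 1.07, SE 0.069) and 1.80-fold with MK-8722 (log2 0.85, SE 0.069), while the log2 fold changes in DKO were 0.11 (-0.03 to 0.25) and 0.13 (-0.01 to 0.28). Within passages *Gaa* was higher at each of the 4 DKO passages with torin1 (log2 0.025 to 0.18) and with MK-8722 (0.031 to 0.23). With passage as a block the adjusted p in DKO were 0.028 and 0.019, and both changes stayed under the fold change required. Responses of -0.96 (SE 0.098, adjusted p = 3.00e-07) and -0.72 (SE 0.098, adjusted p = 2.49e-05) were called. *Gaa* was also the only member called lower in DKO under DMSO, with a log2 difference of -0.64 (SE 0.069, adjusted p = 3.66e-08).

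Among the members described here by a glycosaminoglycan substrate, *Naglu* and *Gusb* had called responses and *Glb1*, described above, did not. *Naglu* (ENSMUSG00000001751, chr11:101070012-101077672, plus strand) encodes the alpha-N-acetylglucosaminidase of heparan sulfate breakdown, which is lost in Sanfilippo syndrome type B. Its libraries held 14.1, 15, 12.9 and 14.7 CPM in WT under DMSO, 34.3, 36.0, 35.0 and 38.8 under torin1, and 27.3, 30.4, 27.7 and 23.8 under MK-8722. In DKO they held 19.3, 21.2, 18.2 and 20.7 CPM, then 34.4, 36.2, 32.1 and 33.9, then 23.1, 24.5, 23.6 and 27.0. Each drug separated all treated from all vehicle libraries in both genotypes, and under either drug the 2 genotypes overlapped. Torin1 raised *Naglu* 2.54-fold in WT (log2 1.34, SE 0.070), the largest rise of a member with that drug, and 1.72-fold in DKO (log2 0.78, SE 0.069). MK-8722 raised it 1.93-fold in WT (log2 0.94) and 1.24-fold in DKO (log2 0.31, adjusted p = 0.003). The DKO call with MK-8722 was lost without DKO MK-8722 replicate 4 (log2 0.26). The responses were -0.56 (SE 0.098) and -0.64 (SE 0.099). *Naglu* began higher in DKO, and the genotypes were not called apart under either drug, with log2 differences of DKO from WT of -0.08 (-0.22 to 0.06) and -0.15 (-0.30 to -0.01).

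*Gusb* (ENSMUSG00000025534, chr5:129989011-130003049, minus strand), the beta-glucuronidase of heparan, dermatan and chondroitin sulfate breakdown, is often used as a reference gene in quantitative PCR. It had 68.6, 65.3, 73.2 and 68.8 CPM in WT under DMSO, 57.3, 63.6, 62.6 and 70.9 under torin1 and 93.1, 81.6, 92.3 and 90.9 under MK-8722. In DKO it had 99.6, 111, 112 and 109 CPM, then 65.9, 65.2, 70.5 and 68.3 under torin1, then 111, 103, 111 and 114 under MK-8722. Only MK-8722 moved it beyond the overlap in WT, and only torin1 did in DKO. Within passages it was lower with torin1 at each of the 4 WT passages, with log2 differences of -0.19 to -0.045. The log2 fold changes in WT were -0.12 with torin1 (-0.24 to 0.00, not called) and 0.37 with MK-8722 (SE 0.057, adjusted p = 2.29e-05), and the latter call was lost with glmTreat (adjusted p = 0.11). In DKO they were -0.68 with torin1 (SE 0.057, adjusted p = 8.46e-10) and 0.02 with MK-8722 (-0.10 to 0.14, not called). The responses were -0.56 (SE 0.081, adjusted p = 3.70e-05) and -0.35 (SE 0.080, adjusted p = 0.0068).

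Of the mannosidases, which trim the mannose residues of N-glycans, *Man2b1* changed little with the drugs, and *Manba* had the largest SE of the members in each comparison. *Man2b1* (ENSMUSG00000005142, chr8:85083270-85098282, plus strand), the alpha-mannosidase, kept its group means between 78.2 ± 2.80 and 93.2 ± 1.07 CPM. Its log2 fold changes with the drugs lay between -0.13 and 0.15, and although 2 of these 4 had adjusted p under 0.05 (0.0049 for MK-8722 in WT and 0.0055 for torin1 in DKO), none reached the fold change required. The *Man2b1* response to torin1 was -0.22 (SE 0.054, adjusted p = 0.0085), below the fold change required, and it was called with library size alone (-0.27) and with an offset for transcript length (-0.28). The response to MK-8722 was -0.13 (adjusted p = 0.18). *Manba* (ENSMUSG00000028164, chr3:135485611-135571404, plus strand), the beta-mannosidase, was the least abundant member, with group means from 2.88 ± 0.745 to 7.97 ± 0.696 CPM. MK-8722 raised *Manba* 1.65-fold in WT (log2 0.72, SE 0.16, adjusted p = 0.0015), from libraries at 1.94 to 3.67 CPM to libraries at 3.78 to 6.02. The call with torin1 in WT (log2 0.40, SE 0.16, adjusted p = 0.037) rested on libraries that overlapped between the treatments. Within passages *Manba* was higher with torin1 at each of the 4 WT passages, by log2 0.15 to 0.92. With passage as a block the call was kept (log2 0.42, adjusted p = 0.00195). It was lost without WT DMSO replicate 1 (log2 0.25) or 4 (0.37), WT torin1 replicate 1 (0.24), 3 (0.39) or 4 (0.42), and WT MK-8722 replicate 1 (0.39), with adjusted p of 0.051 to 0.22, and also with no filter on low counts (0.37, adjusted p = 0.076) and with glmTreat (adjusted p = 0.18). The *Manba* responses of -0.57 (SE 0.22, adjusted p = 0.09) and -0.56 (SE 0.22, adjusted p = 0.16) were not called, and with passage as a block they were called, at -0.58 (adjusted p = 0.0041) and -0.57 (adjusted p = 0.0071). The torin1 response was also called without WT DMSO replicate 2 (log2 -0.71, adjusted p = 0.034) or WT torin1 replicate 2 (-0.67, adjusted p = 0.050), and with the length offset, where it was -1.05 (adjusted p = 0.016). The mean effective length of *Manba* was 2317 bases in WT and 3150 bases in DKO under torin1.

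Between genotypes, *Hexa* was the only member with called differences of both signs. Under DMSO 6 members were called higher in DKO (23.5% of all genes tested), *Manba*, *Gla*, *Gusb*, *Naglu*, *Glb1* and *Hexa*, and only *Gaa* lower (24.6%). Under torin1 3 were higher (24%), *Manba*, *Gla* and *Glb1*, and 3 lower (27.8%), *Gaa*, *Neu1* and *Hexa*. With the length offset *Manba* was no longer called under torin1, where its log2 difference went from 0.74 to 0.28 (adjusted p = 0.21). Under MK-8722 3 were higher (23.3%), *Manba*, *Glb1* and *Gusb*, and 3 lower (25.4%), *Neu1*, *Gaa* and *Hexa*. *Hexa* went from 0.36 (SE 0.071) above WT under DMSO, a call that was lost with glmTreat (adjusted p = 0.074), to -0.54 under torin1 and -0.57 under MK-8722 (SE 0.071 and 0.070), as log2 differences of DKO from WT. *Neu1* went from 0.05 (-0.08 to 0.18, not called) to -1.34 and -1.43, and *Gaa* from -0.64 to -1.60 and -1.35. *Manba* was 2.48-fold higher in DKO under DMSO (log2 1.31, SE 0.16) and *Glb1* 1.37-fold (log2 0.45, SE 0.052). The excess of *Gusb* in DKO under MK-8722 (log2 0.29) missed the fold change required without WT MK-8722 replicate 2 (0.24), without the 2 passages that were left out (0.23) and with library size alone (0.22), and it was not called with glmTreat (adjusted p = 0.27). With library size alone in place of TMM, the median log2 difference over all genes under torin1 shifted by -0.13, and *Glb1* was no longer called there (0.23).

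Torin1 and MK-8722 were compared directly in WT cells. 1 member was called higher with torin1 (24.9% of all genes tested), *Naglu*, with a log2 difference of 0.40 (SE 0.068, adjusted p = 2.51e-05). Called lower with torin1 than with MK-8722 were 4 members (20%). *Neu1* differed most, by -1.42 (SE 0.062, adjusted p = 4.42e-14), followed by *Gusb* at -0.49 (SE 0.057), *Gla* at -0.38 (SE 0.088) and *Hexa* at -0.34 (SE 0.070). The call of *Hexa* was lost with library size alone (-0.26) and with glmTreat (adjusted p = 0.14), and that of *Gla* with glmTreat (adjusted p = 0.094). *Gaa* was called with library size alone (0.30). *Gaa* at 0.23 (0.08 to 0.37) and *Glb1* at 0.16 (0.05 to 0.27) had adjusted p of 0.007 and 0.0096 but missed the fold change. For *Man2b1* the interval was -0.14 to 0.02, and for *Manba* -0.64 to 0.01. *Manba* was called with passage as a block (log2 -0.31, adjusted p = 0.011), without WT torin1 replicate 1 (-0.47) and without WT MK-8722 replicate 4 (-0.41).

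3 lists of related genes were set beside the members. Of the other lysosomal glycan hydrolases, 12 genes are given here, of which 11 were tested and *Neu4* was at 0 in every library. Of these 11, 4 had a response to MK-8722 called lower (*Fuca2*, *Galc*, *Idua* and *Aga*) and 5 a response to torin1 called lower, the same 4 and *Man2b2*. Since the 12 genes are only part of the list, no median is given for it. *Fuca2*, a fucosidase, had responses of -0.89 (SE 0.076) to MK-8722 and -1.29 (SE 0.076) to torin1. For *Galc*, the galactosylceramidase lost in Krabbe disease, they were -0.80 (SE 0.12) and -1.19 (SE 0.12), and for *Aga*, the enzyme that splits the link between asparagine and N-acetylglucosamine, -0.56 (SE 0.079) and -0.57 (SE 0.079). *Idua*, the iduronidase of heparan and dermatan sulfate, rose 2.44 on the log2 scale with torin1 in WT and 1.39 in DKO, from means of 1.89 and 4.93 CPM, and its responses were -0.68 (SE 0.17) to MK-8722 and -1.06 (SE 0.17) to torin1. *Hyal2*, a hyaluronidase that is also anchored at the cell surface, went the other way with torin1, at 0.34 (SE 0.058, adjusted p = 0.00029), and its response to MK-8722 was -0.16 (adjusted p = 0.12).

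The list of partners and sorting factors holds the proteins that protect, activate or deliver the enzymes. All 10 were tested, 4 had a response to MK-8722 called lower (*Ctsa*, *Nagpa*, *Igf2r* and *Gnptg*) and 6 a response to torin1 called lower, the same 4 with *Scarb2* and *Gnptab*. The medians were -0.31 and -0.36. *Ctsa*, the protective protein of the complex that holds NEU1 and GLB1, had the largest responses of the list, at -1.10 (SE 0.092) to MK-8722 and -1.01 (SE 0.092) to torin1, and its group means were 130.5, 303 and 279.9 CPM in WT and 133.6, 154.6 and 134.1 in DKO under DMSO, torin1 and MK-8722. *Gnptg* and *Nagpa*, which take part in making the mannose 6-phosphate tag, had MK-8722 responses of -0.54 (SE 0.099) and -0.63 (SE 0.084). *Igf2r*, a receptor for that tag, had -0.62 (SE 0.11), and its torin1 response of -0.33 was near the threshold (adjusted p = 0.047). CACGTG was found in a promoter of 4 of the 8 genes of the list that had one in the table, *Ctsa*, *Gnptg*, *Igf2r* and *Nagpa*. This counts genes with the letters in any promoter, while the share over all promoters given above counts promoters. In the other lysosomal glycan hydrolases given above, CACGTG was found for 0 of the 11 genes with a promoter in the table.

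Glycosidases of the ER, Golgi, cytosol or cell surface made the third list, of which 17 of 18 genes were tested. No response of these 17 was called with edgeR (0 with each drug) or with DESeq2's Wald test (0 with each), and 5 had an unadjusted p under 0.05 for torin1 and 3 for MK-8722. The medians were -0.08 for torin1 and 0.02 for MK-8722. The largest value, that of the Golgi mannosidase *Man1a*, was -1.49 with an SE of 0.59 and an adjusted p of 0.17, from DKO means of 0.0730 to 0.164 CPM. *Gba2*, *Oga* and *Man2c1* followed with MK-8722 responses of 0.28 (SE 0.098), 0.23 (SE 0.18) and -0.14 (SE 0.097). CACGTG was found for 0 of the 16 genes of this list with a promoter in the table. A difference between the lists was not tested.

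**Figure D4:**
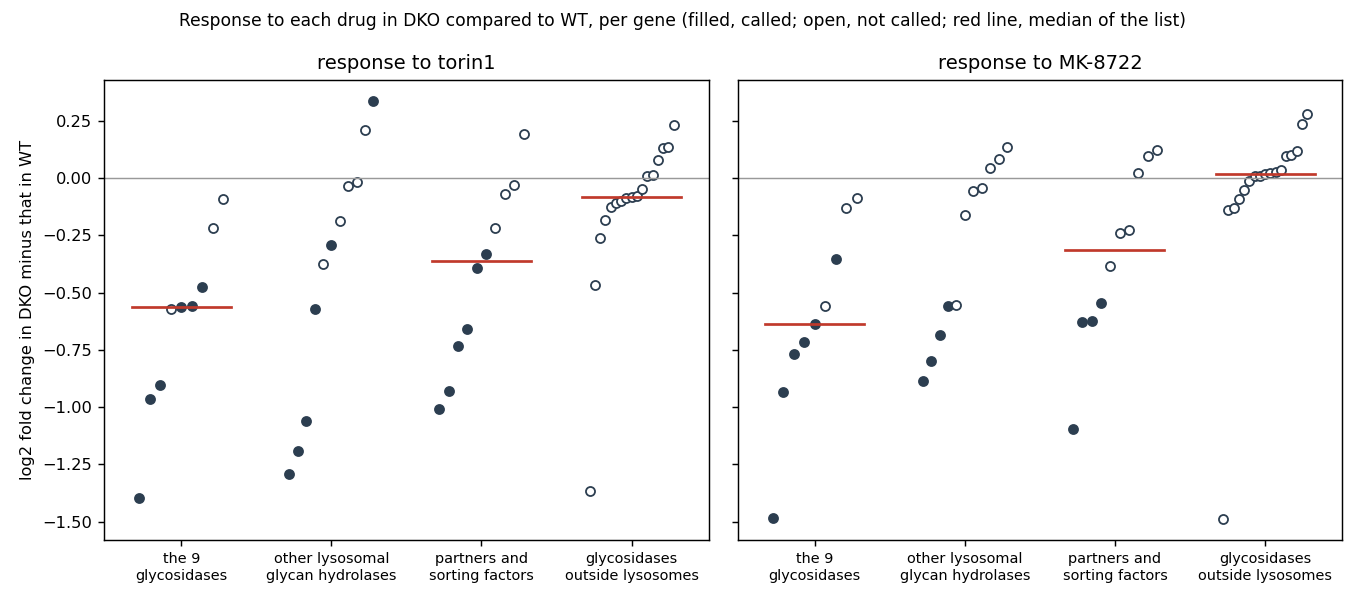
Response to each drug, as the log2 fold change in DKO minus that in WT, for each tested gene of the 4 lists that is given here (filled, called; open, not called; red line, median, drawn for 3 of the lists). The 9 members all lie below 0, and the glycosidases outside lysosomes lie between -0.47 and 0.28 apart from *Man1a*, which was not called.

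Salmon also divided the counts of each gene among its transcripts. The mean share of the main transcript moved most between groups for *Gla* and *Manba*, and the effective length of *Manba* differed as given above. *Hexa* has 1 transcript in the table. The main transcript of *Neu1* took a mean of 73.9% (WT under torin1) to 79.4% (WT under DMSO) of the gene's counts, although the level of the gene ranged from 14 to 95.2 CPM over the groups. For *Gaa* 2 transcripts took nearly equal parts, and the larger part had group means of 47.6% to 49.4%. The main transcript held 62.9% to 70.6% for *Gla*, 75.2% to 79.6% for *Glb1*, 70.7% to 72.7% for *Gusb*, 84.5% to 92.0% for *Manba*, 90.2% to 91.7% for *Man2b1* and 94.4% to 96.9% for *Naglu*. No test was made on these shares.

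Among themselves the members did not follow a common profile over the 24 libraries, which share genotype, treatment and passage, so the following correlations only describe them. Pearson's r between the log2 CPM of a member and the mean of the other members, each scaled over the libraries, ran from -0.07 for *Gaa* to 0.85 for *Gla*. *Hexa* and *Neu1* had an r of 0.80 with each other and *Gaa* 0.67 and 0.66 with them, whereas *Manba* and *Gaa* had an r of -0.60. *Manba* correlated instead with *Man2b1* (0.80), *Gla* (0.78) and *Glb1* (0.78). The 5 other genes nearest to the mean profile of the 9 were *Ctsd*, the lysosomal protease cathepsin D, with r = 0.98, *Fam50a* with 0.95, *Rnh1*, a ribonuclease inhibitor, with 0.95, and *Dnajc13* and *Spryd7* with 0.94 each. *Ctsd* had group means of 217, 311 and 355 CPM in WT and 311, 300.4 and 341 CPM in DKO under DMSO, torin1 and MK-8722.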

How the data were processed

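Polyadenylated RNA of 24 cultures was sequenced as pairs of 52 bp. Per the labels and the paper's methods, the authors used nf-core/rnaseq, run with Nextflow and taking account of unique molecular identifiers, in which they aligned reads to GRCm38 with STAR and quantified genes with salmon, and they deposited estimated counts and TPM, with an effective length in bases as another column; TPM entered no test. The versions of STAR and salmon are not given in the sources used here. The submitters removed a batch effect whose nature is not stated, and none was removed here, since the labels give a single batch. Gene coordinates and overlaps came from GENCODE M21, and promoters from RefSeq (GRCm38.p6), where 9 of 9 members matched.

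Estimated counts were rounded, 15401 of 31829 genes with a count passed filterByExpr (minimum count 10), and TMM factors were 0.95 to 1.08. A mean per group was fitted to all libraries with edgeR 4.0.16 (quasi-likelihood in its form before version 4, R 4.3.3), with 18 residual degrees of freedom and a biological coefficient of variation of 10.7%. 10 contrasts were tested. SE is the log2 fold change over the root of F. Scripts were tested on simulated data. The alternatives were DESeq2 1.42.0, other scalings, filters and thresholds, a length offset, blocks of replicate number or passage, and libraries left out.

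The 9 members and all lists were chosen with earlier results of these data known. Some genes of the list of other lysosomal glycan hydrolases are not reported here, and its counts leave them out. Named genes were the members, the 4 genes of each list with the largest response to MK-8722, any gene called against its list, and the 5 most correlated genes. Other called list genes are given by name only, and the marker genes were named from their lists after their values were seen. Replicate numbers did not pair the libraries (median correlation of deviations from group means 0.044, range -0.414 to 0.657). Libraries of a genotype at the same passage had a median of 0.157 (0.0221 to 0.657), and those at different passages -0.0392 (-0.415 to 0.263). Chi-square per degree of freedom between replicates was 3.86 to 39.6 over 36 pairs, so none were duplicates. The labels do not say whether cultures were independent beyond passage, so p-values measure the spread between these libraries. RIN was 7.9 in DKO MK-8722 replicate 3 and 9.7 to 9.9 in all other libraries.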

Additional observations from a re-analysis of the deposited data

Results flagged for a closer look

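The response to a drug differed between the genotypes, by the contrast of the 2 fold changes, for 6 members with each drug. All 6 were called lower, as were 6.33% of all genes tested with torin1 and 4.08% with MK-8722. On the log2 scale the differences for torin1 were -1.40 for *Neu1*, -0.96 for *Gaa*, -0.90 for *Hexa*, -0.56 for *Naglu*, -0.56 for *Gusb* and -0.47 for *Gla*. For MK-8722 they were -1.48 for *Neu1*, -0.93 for *Hexa*, -0.77 for *Gla*, -0.72 for *Gaa*, -0.64 for *Naglu* and -0.35 for *Gusb*.

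In 3 of the 54 combinations of a member and a group, 1 library of 4 lay apart from the rest by Dixon's criterion, where chance gives about 1 in 20. These were *Neu1* in DKO torin1 replicate 4, at 13 CPM against 14.3 to 14.5 in the others, *Gla* in DKO MK-8722 replicate 4, at 34.8 CPM against 31.2 to 31.5, and *Manba* in DKO DMSO replicate 2, at 6.57 CPM against 7.26 to 7.34. All 3 libraries came from passage 8.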

How the results depend on the processing

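Of 90 combinations of a member and a comparison, 56 kept their sign and their call under each of the 36 alternatives that apply, and 8 changed sign under any, all of them not called. Requiring a fold change of 1.2 in the test itself (glmTreat) left 1 member called higher with torin1 in DKO, 1 with MK-8722 in DKO, and 2 called lower with torin1 than with MK-8722 in WT. It also ended the calls of *Glb1* and *Manba* with torin1 and of *Gusb* with MK-8722 in WT, of *Hexa* under DMSO and *Gusb* under MK-8722 between genotypes, and of the responses of *Gla* to torin1 and *Gusb* to MK-8722. Members called higher with torin1 than with MK-8722 in WT numbered 2 with library size alone and 3 with adjusted p alone, and library size alone ended the call of *Hexa* there. Leaving out 1 library at a time gave 2 to 4 members called higher with MK-8722 in DKO, the 2 without DKO MK-8722 replicate 4. Signs changed with library size alone for *Hexa* with torin1 in DKO (0.012), *Neu1* between genotypes under DMSO (-0.020), *Gusb* and *Man2b1* between genotypes under torin1 (-0.042 and -0.10) and *Man2b1* between the drugs in WT (0.016), with the length offset for *Gusb* and *Man2b1* with MK-8722 in DKO (-0.013 and -0.036) and *Manba* between the drugs (0.036), and without the 2 passages for *Hexa* with torin1 in DKO (0.014). Without 1 library, *Hexa* with torin1 in DKO ran from -0.068 to 0.025, *Gusb* with MK-8722 in DKO from -0.016 to 0.052 and *Man2b1* with MK-8722 in DKO from -0.0020 to 0.038. With the length offset *Manba* was no longer called between genotypes under torin1 (0.28). The cause of these changes was not tested. The replicate block changed none of the calls, with 6 members again called lower for each response. The passage block, which was not run for the differences between genotypes, gave 7 members called lower for each response, *Manba* being added. It gave 5 members called lower with torin1 than with MK-8722 in WT. The shares of all genes called under the alternatives are not given here. The low counts of *Manba* limit its precision.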
